A study of Mus musculus with 8 samples.

Results

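The genes described here are Nnmt, Nampt, Nmnat1, Nadsyn1, Qprt and Sirt1, which make, recycle, spend or dispose of nicotinamide adenine dinucleotide (NAD) and its parts. They were taken by name, with every probe set annotated to them, and the list was chosen by readings of these arrays, in which the signal of Nnmt had been seen to rise with resection in A20 livers. These 6 genes had 10 of the 45101 probe sets of the arrays, all 10 were above the minimum signal, and the genes are 6 of the 17790 tested. A probe set is a group of short probes that reads 1 transcript or gene, and its signal is a brightness on a linear scale without a physical unit.

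The samples were livers of BALB/c mice, 8 weeks old, that had received an adenovirus 5 days before surgery. The virus carried human A20, an inhibitor of NF-κB signalling (rAd.A20), or β-galactosidase as a control (rAd.βgal), so that mice of every group carried virus. Each animal then lost 78% of its liver. The removed lobes are the pre-βgal and pre-A20 groups, and the remnants taken 24 h later are the post-βgal and post-A20 groups. Each of the 4 groups had 2 arrays, and each array carried RNA pooled from 3 mice. By the study's account, 30 to 40% of hepatocytes expressed the transgene. For the post-A20 samples 1 label, the treatment, names βgal, while titles, sources and descriptions name A20, which was followed. Nothing says which pools share mice, so p-values measure only the spread between these pools.

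NAD carries electrons in metabolism and is also consumed, by sirtuins, by poly(ADP-ribose) polymerases and by ectoenzymes, each of which releases nicotinamide. Nampt starts the salvage of nicotinamide by turning it into nicotinamide mononucleotide, and Nmnat1 turns this into NAD in the nucleus. Qprt ends the de novo branch from tryptophan, a branch for which the liver is the main organ, and Nadsyn1 adds the last amide group on the routes through nicotinate. Nnmt takes nicotinamide out of this cycle by methylating it with S-adenosylmethionine, and Sirt1 is a deacetylase that splits NAD to work.

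The regions before the start sites were searched for the letters of binding motifs of factors active in liver, and those of Sirt1 and Qprt are shown since of the members' promoters they alone held a match. RefSeq promoters (GRCm38.p6) were at hand for 5 of the 6 genes, without Nnmt, and the 250 bases before each start were searched on both strands for STAT (TTCNNNGAA), E box (CACGTG) and C/EBP (TTNCNNAA) letters and for longer forms of the NF-κB and HNF1 motifs, which can overlap each other. The capitals mark the matches, and both windows lie on the minus strand.
Sirt1, chr10:63339036-63339285: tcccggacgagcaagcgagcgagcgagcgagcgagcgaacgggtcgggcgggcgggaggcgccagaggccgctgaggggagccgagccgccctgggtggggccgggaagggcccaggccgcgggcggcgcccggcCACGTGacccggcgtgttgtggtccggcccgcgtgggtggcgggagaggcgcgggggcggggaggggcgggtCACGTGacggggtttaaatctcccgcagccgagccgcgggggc
Qprt, chr7:127122030-127122279: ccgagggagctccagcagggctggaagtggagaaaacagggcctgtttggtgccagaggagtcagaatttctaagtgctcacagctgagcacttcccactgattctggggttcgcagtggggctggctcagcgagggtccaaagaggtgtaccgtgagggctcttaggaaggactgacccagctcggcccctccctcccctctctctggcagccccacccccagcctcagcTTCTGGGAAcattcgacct
The Sirt1 window held 2 E boxes, whose first bases lie 115 and 43 bases before the start. Of the 32851 windows of all promoters, 6.02% held an E box and 0.429% held at least 2. The Qprt window held 1 STAT match, 19 bases before the start, a motif in 7.02% of all windows. C/EBP letters were in 36.8% of windows, NF-κB letters in 1.41% and HNF1 letters in 0.00913%. The windows also differed in composition, with 39 CG pairs in that of Sirt1 and 6 in that of Qprt. A match of letters is no sign that a factor binds there.

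The first pools of the βgal groups had RNA of lower integrity by the β-actin controls. The 3′ to 5′ ratio of these controls rises as RNA breaks down. It was 7.00 on the first pre-βgal array, 3.64 on the first post-βgal array and 1.27 to 1.62 on the other 6. Low or poor integrity below means a high ratio, and RNA breakdown was not tested in another way. The median signal per array was 153 to 166. In the tests below, differences are log2 of the signal plus 16, from 1 limma model of the 4 groups, and a gene is called at a Benjamini-Hochberg adjusted p under 0.05 over all genes.

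Nnmt had the largest resection response of the 6 genes, with about 8 times the signal after resection in βgal livers. The arrays read 909 and 645 in pre-βgal and 7316 and 5597 in post-βgal livers. They read 248 and 538 in pre-A20 and 2044 and 3994 in post-A20 livers. The levels thus ran in the order pre-A20, pre-βgal, post-A20 and post-βgal, and no array of a group overlapped with that of a neighbour in this order. Of all genes, 51.3% had no overlap between the transgenes before resection and 60.1% after it. The order is a description, since the A20 arrays had been used to choose Nnmt. In βgal livers, the comparison that the choice of Nnmt did not use, the signal rose from 777 ± 187 to 6457 ± 1215 (SD, n = 2 arrays each). This was a log2 difference of 3.04 (SE 0.42, 95% interval 2.05 to 4.02), a fold of 8.21, with an adjusted p of 0.0193 in limma. It was the rise of rank 6 among 17790 genes. Nnmt was the only member called higher, 1 of 6 against 1.5% of all genes. The call was lost without post-βgal replicate 1 (log2 difference 2.84, adjusted p = 0.118) or replicate 2 (3.23, adjusted p = 0.0985), and the difference itself stayed between 2.79 and 3.28 in all 21 alternatives.

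**Figure D1:**
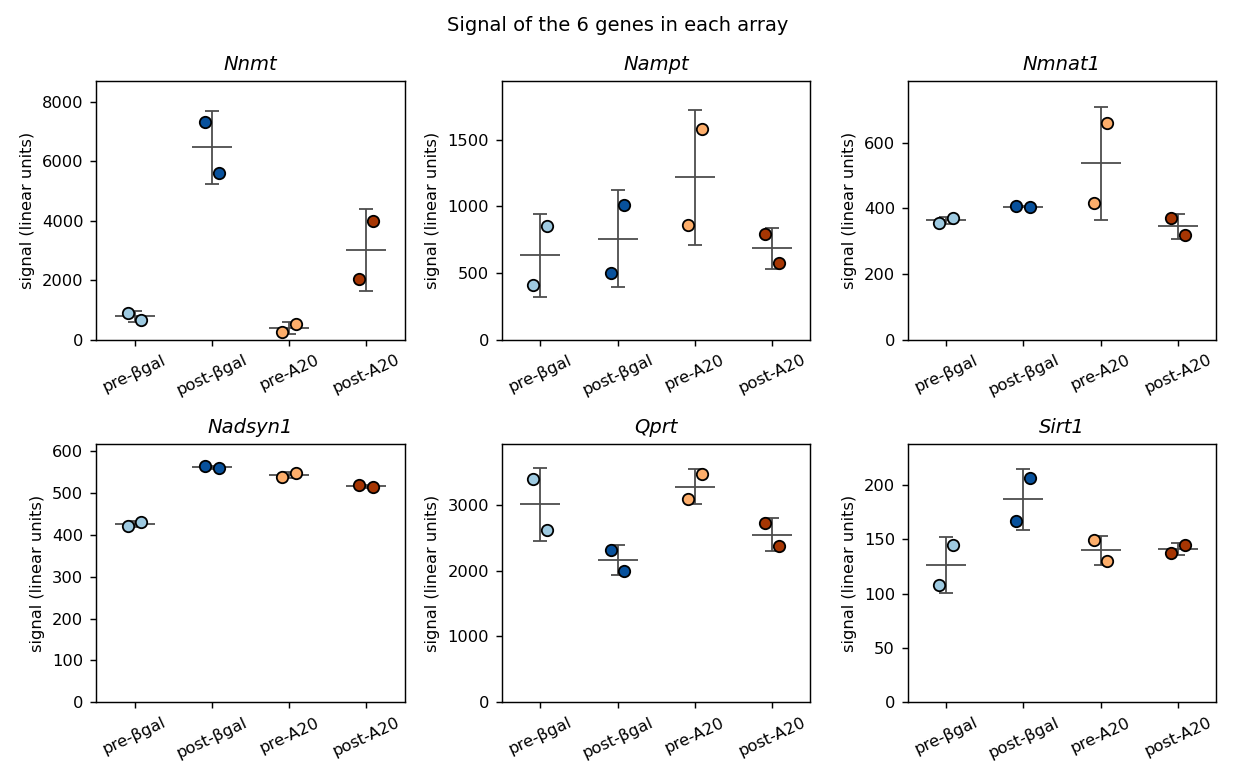
Signal of the 6 genes (y axis, linear units, from 0) in the 4 groups (x axis), with 1 point per array and a bar for the mean ± SD of 2 arrays. Nnmt read 248 to 909 on the arrays before resection and 2044 to 7316 after it, while the arrays of Nampt spread from 412 to 1576 without a shared order.

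In A20 livers, the comparison for which Nnmt was listed, the mean signal was 393 ± 205 before and 3019 ± 1379 after resection (SD, n = 2 arrays each). This is a log2 difference of 2.91, given as a description. The difference between the responses of A20 and βgal livers was −0.13. Against βgal livers, Nnmt read lower in A20 livers at both times, by a log2 difference of −1.03 before and −1.16 after resection, also given as values since the A20 arrays had been used to choose the gene. Each of them leaned on single pools, as the difference before resection was −0.50 without pre-A20 replicate 1 and −1.56 without replicate 2. The difference after resection was −0.68 without post-A20 replicate 1 and −1.64 without replicate 2.

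Markers of other cell types moved between the same groups. Of the 7 adipocyte markers, 5 were tested, and their summed signal was 920 to 1162 in pre-βgal, 2312 to 3095 in post-βgal, 916 to 1091 in pre-A20 and 2117 to 2616 in post-A20 livers. In that sum Fabp4, a fatty acid carrier also made by endothelium and macrophages, went from 256 and 349 to 1655 and 2351 in βgal livers. Of the other markers in that sum, Adipoq, between 52.2 and 91.3, and Lep, between 49.6 and 64.8, were low on all 8 arrays. Retn read 431 to 639 and Cidea 79.4 to 105. The sum of 10 of 11 neutrophil markers was 3970 to 4603 in pre-βgal, 5780 to 6716 in post-βgal, 2523 to 2634 in pre-A20 and 3035 to 3311 in post-A20 livers. Its differences lay mostly in S100a8 and S100a9, as the other 8 markers summed to 2532 to 2718 in pre-βgal, 2428 to 2721 in post-βgal, 2211 to 2369 in pre-A20 and 2466 to 2496 in post-A20 livers. Within these 8, single markers moved in opposite directions. In βgal livers Mmp8 rose from 154 and 152 to 372 and 472, and Cxcr2 fell from 732 and 869 to 483 and 550. On the A20 arrays Mmp8 read 120 to 138. With resection in βgal livers, 6 of the 10 read higher and 4 lower. The sum of 10 of 10 macrophage markers was 7574 to 8279 in pre-βgal, 5342 to 6765 in post-βgal, 4463 to 4494 in pre-A20 and 6252 to 6954 in post-A20 livers. In βgal livers 3 of the 10 macrophage markers read higher after resection, among them Cd68 (263 and 311 to 417 and 585), and 7 lower. In A20 livers 9 read higher and 1 lower. In pre-A20 livers 1 of them, Cd163 (41.5 and 36.5), had a mean under 40. For 9 of 9 sinusoidal endothelial markers the sum was 4593 to 4611, 3837 to 4192, 5134 to 5139 and 3824 to 4025 in the same order of groups. In βgal livers 2 of the 9 read higher after resection, among them Lyve1 (180 and 173 to 660 and 719), and 7 lower. For 12 of 12 stellate cell and fibroblast markers it was 6469 to 7490, 6329 to 6557, 8076 to 8212 and 7242 to 9099 in that order. Over the 8 arrays, 10 of 12 T and NK cell markers summed to 2620 to 3330 and 5 of 7 biliary markers to 1335 to 1716. The sum of 10 of 10 hepatocyte markers was 94195 to 96890 in pre-βgal and 99688 to 102619 in post-βgal livers, and 100084 to 107470 and 105346 to 111974 in pre-A20 and post-A20 livers, and no defining marker was at 0. In βgal livers 6 of the 10 hepatocyte markers read higher after resection, among them Tat (1766 and 4672 to 6084 and 7186). The other 4 read lower, among them Asgr2 (3234 and 2240 to 1547 and 1150). In A20 livers 5 read higher and 5 lower. The part of these cell types in the Nnmt signal was not tested. In tissue RNA fewer cells of a type and less RNA per cell cannot be told apart.

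The genes whose log2 signal was most like that of Nnmt over the 8 arrays, among 1242 genes whose group means spanned at least 1 on the log2 scale, were Orm3, Atp10d, Bmper, Slc25a24 and Snhg3, with Pearson's r from 0.984 to 0.976. The points share arrays, groups and RNA pools, so these are descriptions. Orm3, an orosomucoid of the acute phase, averaged 161 in pre-βgal, 533 in post-βgal, 88.5 in pre-A20 and 344 in post-A20 livers. Bmper, a secreted regulator of bone morphogenetic proteins, averaged 117, 950, 66.4 and 435 in the same groups. Slc25a24 is a mitochondrial carrier of ATP-Mg and phosphate, and its means were 67.1, 149, 52.8 and 107. The remaining pair, the flippase Atp10d and the small nucleolar RNA host Snhg3, had log2 differences after resection of 1.04 and 1.24 in βgal livers and 0.83 and 0.86 in A20 livers.

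**Figure D2:**
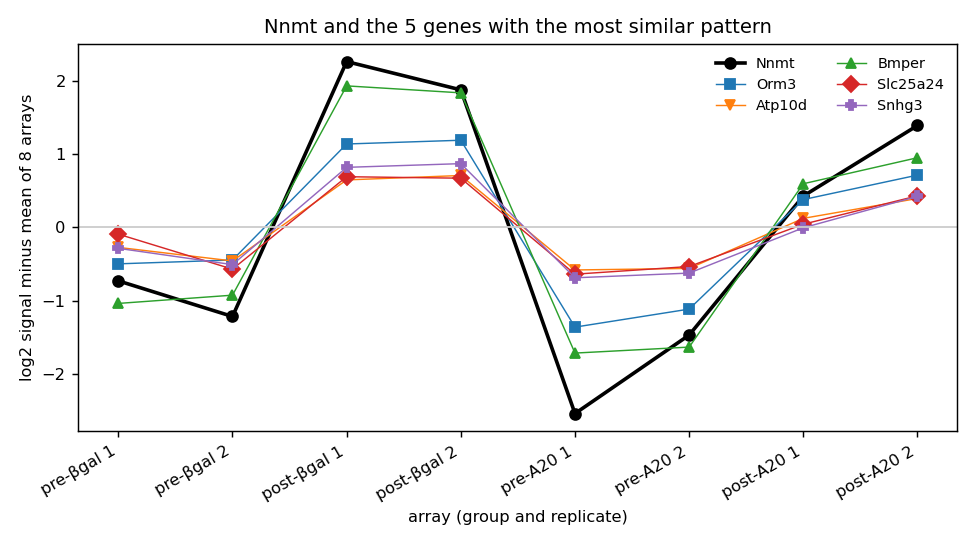
Log2 signal minus its mean over 8 arrays (y axis) on each array (x axis) for Nnmt, in black, and the 5 genes with the highest Pearson's r to it. All 6 genes lay higher on the 4 arrays after resection than on the 4 before it, and highest in post-βgal livers.

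Of the genes next to Nnmt in the pathway, the aldehyde oxidases, which oxidise the methylated nicotinamide that Nnmt makes, gave 0 calls with resection in limma, with 2 of 3 at an uncorrected p under 0.05 in either transgene. The shares of all genes at that limit were 22.2% in βgal and 15.4% in A20 livers. Aox3, chosen after its values were seen, read 1949 and 2979 in pre-βgal and 833 and 812 in post-βgal livers. It read 5486 and 4256 in pre-A20 and 2604 and 1082 in post-A20 livers. The log2 difference of Aox3 with resection was −1.53 in βgal livers (95% interval −2.45 to −0.62, adjusted p = 0.0888 in limma) and −1.51 in A20 livers (adjusted p = 0.124), both short of the threshold. Aox1 had differences of −0.77 (adjusted p = 0.109) and −0.56 (adjusted p = 0.267) in the same limma comparisons, and Aox4, which is expressed mainly outside the liver, had −0.04 and 0.30.

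The methyl donor side of the Nnmt reaction was followed through 19 of 21 genes of the methionine cycle. In βgal livers 2 were called lower after resection and 0 higher, where 0.748% of all genes were called lower and 1.5% higher. The 2 genes were Sardh, which demethylates sarcosine in mitochondria, and Shmt1, which moves 1 carbon between serine and glycine. Sardh read 3839 and 3617 before and 1792 and 1545 after resection, a log2 difference of −1.16 (adjusted p = 0.0335 in limma). Shmt1 read 2297 and 1655 before and 934 and 782 after, a difference of −1.17 (adjusted p = 0.0363 in limma). The Sardh call was lost without pre-βgal replicate 1 or any of the post-βgal and post-A20 arrays, and the Shmt1 call without any array but pre-βgal replicate 2, with adjusted p up to 0.170 and 0.185, and the Shmt1 difference was −0.76 (adjusted p = 0.0759 in limma) as a mean over its probe sets. The median of the 19 genes was −0.37, that of all genes −0.05. In βgal livers 14 of the 19 read lower after resection and 5 higher. Of the 19, 10 were at an uncorrected p under 0.05 in limma, where 22.2% of all genes were. In A20 livers 0 were called, where 1.01% of all genes were, and the median was 0.14, against 0.02 for all genes. At an uncorrected p under 0.05 in limma were 5 of 19, and 15.4% of all genes. Between A20 and βgal livers before resection 3 of 19 were at an uncorrected p under 0.05 in limma, where 21.8% of all genes were. In that comparison, where 2.5% of all genes were called, 1 was called, Mtr, methionine synthase, which is outside the naming rule. It read 377 and 407 in pre-βgal and 242 and 169 in pre-A20 livers, a difference of −0.90 (adjusted p = 0.0482 in limma) that was not called without any 1 of the 8 arrays (adjusted p 0.0512 to 0.283). After resection 16 of 19 read higher in A20 livers, with a median of 0.56 against 0.03 for all genes, and 0 were called by limma, where 0.332% of all genes were. Of the 19, 11 were at an uncorrected p under 0.05 in limma, and 19.6% of all genes. Bhmt, which remethylates homocysteine with betaine, read 6801 and 7931 in post-βgal and 12147 and 13724 in post-A20 livers (log2 difference 0.81, adjusted p = 0.0632 in limma). Dmgdh, which takes the next step on the product of betaine, read 1891 and 1761 against 3181 and 3322 (0.83, adjusted p = 0.0689 in limma).

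Nampt, the entry of the salvage route, was not called, and its pools differed widely within groups. Its brightest probe set, 1417190_at, read 412 and 853 in pre-βgal, 498 and 1013 in post-βgal, 857 and 1576 in pre-A20 and 792 and 576 in post-A20 livers. The βgal groups overlapped each other, and both pre-A20 arrays lay above all others of their transgene. With resection in βgal livers the log2 difference was 0.25 (95% interval −0.82 to 1.32, adjusted p = 0.773 in limma), and this turned to −0.26 when pre-βgal replicate 1 was left out, and to −0.25 when post-βgal replicate 2 was. In A20 livers it was −0.77, a value without a test since the choice of genes used this contrast, and −1.20 without pre-A20 replicate 1 and −0.34 without replicate 2. Against βgal, A20 livers differed by 0.95 before (adjusted p = 0.275) and −0.07 after resection (adjusted p = 0.941 in limma). The first of these rested in part on 1 array, since it was 0.44 (adjusted p = 0.679) without pre-βgal replicate 1. The second was 0.43 without post-βgal replicate 2, −0.57 without post-βgal replicate 1 and 0.15 without post-A20 replicate 2.

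The other probe sets of Nampt ran with the brightest. Probe set 1455320_at read 379 and 683, 380 and 575, 676 and 1052, and 654 and 457 in the same order of groups. Probe set 1448607_at read 367 and 481, 386 and 489, 485 and 731, and 401 and 338. Pearson's r over the 8 arrays was 0.949 and 0.910 with the brightest and 0.881 between these, and all probe sets were lower on the arrays of poor integrity than on their partners. Over the 8 arrays, r with the log2 actin ratio was −0.676 for the brightest probe set, −0.648 for 1455320_at and −0.352 for 1448607_at. With this ratio as a covariate, the difference of A20 from βgal before resection was 0.50 (adjusted p = 0.390 in limma), and after resection −0.42. In βgal livers the probe sets did not share a sign after resection, with log2 differences of 0.25, −0.12 and 0.05. In A20 livers all were lower after resection, with log2 differences of −0.77, −0.61 and −0.67, given without a test.

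**Figure D3:**
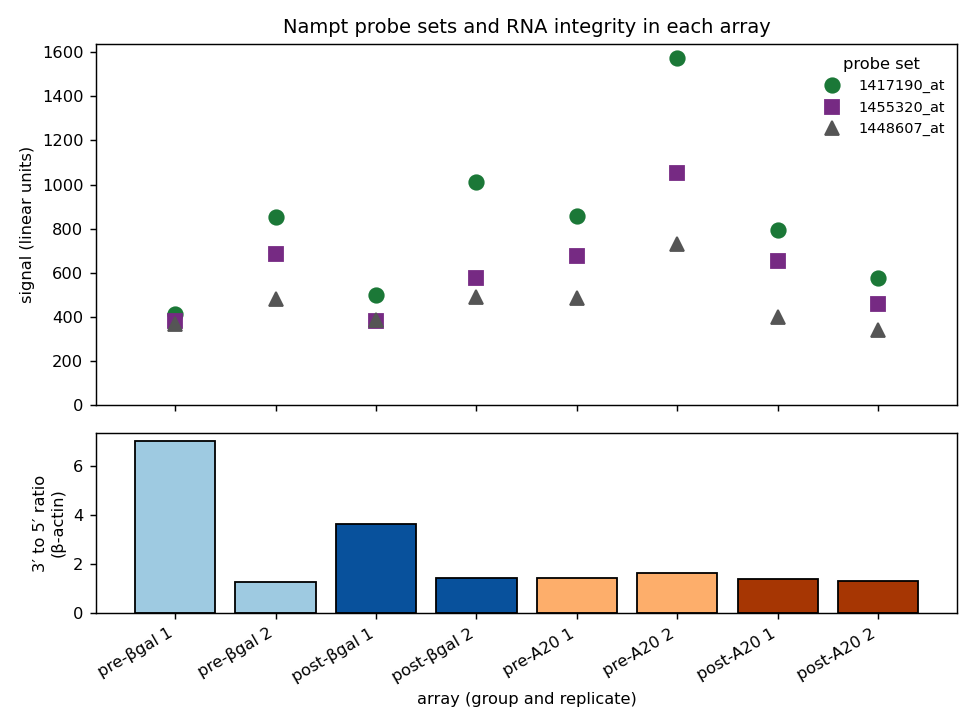
Top, signal of the 3 Nampt probe sets (y axis, linear units, from 0) on each array. Bottom, the 3′ to 5′ ratio of the β-actin controls. The arrays with ratios of 7.00 and 3.64 held the lowest signals of the βgal groups for every probe set, and pre-A20 replicate 2 the highest of all.

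Nmnat1, which makes NAD in the nucleus, and Nadsyn1, which finishes the nicotinate route, had opposite signs of difference with resection in the transgenes, and neither was called. Nmnat1 read 355 and 371 in pre-βgal, 407 and 404 in post-βgal, 416 and 659 in pre-A20 and 371 and 318 in post-A20 livers. Its arrays after resection lay above those before it in βgal livers and below them in A20 livers. The log2 difference in βgal livers was 0.15 (adjusted p = 0.698) and that in A20 livers −0.59, the latter without a test and leaning on single pools, as it was −0.91 without pre-A20 replicate 1 and −0.26 without replicate 2. A20 livers differed from βgal livers by 0.51 before (adjusted p = 0.215) and −0.23 after resection (adjusted p = 0.561 in limma). The value of 0.51 was 0.19 without pre-A20 replicate 2 and 0.83 without pre-A20 replicate 1. Its other probe set, 1429819_at, with r = 0.587 to the first over 8 arrays, read 359 and 334, 427 and 305, 305 and 412, and 293 and 296, a difference of 0.03 before resection.

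Nadsyn1 had the tightest pools. It read 421 and 430 in pre-βgal, 563 and 558 in post-βgal, 538 and 547 in pre-A20 and 518 and 513 in post-A20 livers. Pre-βgal was lower than all other groups, and no groups overlapped. The log2 difference with resection was 0.39 in βgal livers (95% interval 0.09 to 0.68, adjusted p = 0.144 in limma), and −0.07 in A20 livers, without a test. A20 livers differed from βgal livers by 0.34 before (adjusted p = 0.183) and −0.12 after resection (adjusted p = 0.622 in limma). The genes most like it were Slc25a32, a mitochondrial folate and FAD carrier (r = 0.939 over 8 arrays), and Ell2, an elongation factor of transcription (r = 0.924). Slc25a32 averaged 140, 319, 278 and 266 in pre-βgal, post-βgal, pre-A20 and post-A20 livers, the same order of groups as Nadsyn1.

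Qprt read lower after resection in both transgenes, and was not called. Probe set 1418836_at read 3395 and 2616 in pre-βgal, 2318 and 1996 in post-βgal, 3084 and 3463 in pre-A20 and 2722 and 2369 in post-A20 livers. Neither transgene's arrays overlapped between the times. The log2 difference was −0.47 in βgal livers (95% interval −0.91 to −0.03, adjusted p = 0.203 in limma), and −0.36 in A20 livers, without a test. A20 livers differed from βgal livers by 0.13 before (adjusted p = 0.717) and 0.24 after resection (adjusted p = 0.500 in limma), and the first was −0.05 without pre-βgal replicate 2. The dimmer probe set, 1418837_at, read 835 and 620, 677 and 526, 611 and 743, and 661 and 620. It overlapped between the times in both transgenes, and its r with the brighter one was 0.783. The dimmer one also had r = 0.730 with the log2 actin ratio over 8 arrays.

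The genes most like Qprt were Prxl2b, which makes prostaglandin F (r = 0.985), and Enho, which encodes the hormone adropin (r = 0.981). Enho averaged 772 in pre-βgal, 300.0 in post-βgal, 797 in pre-A20 and 391 in post-A20 livers, and its log2 differences with resection, −1.23 and −0.99, had the direction of those of Qprt. Among the members, Qprt had the lowest correlations, with r = −0.856 to Sirt1 and −0.808 to Nnmt, and the highest was between Nampt and Nmnat1, r = 0.758, all over the 8 arrays.

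Sirt1 had its highest arrays in post-βgal livers. It read 108 and 145 in pre-βgal, 167 and 207 in post-βgal, 150 and 131 in pre-A20 and 138 and 145 in post-A20 livers. In A20 livers the arrays before and after resection overlapped. The log2 difference with resection was 0.51 in βgal livers (95% interval 0.16 to 0.86, adjusted p = 0.118 in limma), and 0.01 in A20 livers, without a test. A20 livers differed by 0.14 before (adjusted p = 0.628) and −0.36 after resection (adjusted p = 0.244 in limma). The value before resection was −0.05 without pre-βgal replicate 1. With the actin ratio as a covariate, the differences in βgal livers (0.45, adjusted p = 0.0233) and after resection (−0.49, adjusted p = 0.0382 in limma) passed the threshold, in a fit that raised the calls over all genes from 400 to 2362 and from 59 to 682 in these comparisons. Its r with the log2 ratio was −0.442 over 8 arrays. Without pre-βgal replicate 1 the value in βgal livers was 0.33. The genes most like Sirt1 were Tfdp1, a partner of E2F in the cell cycle (r = 0.950), and Ythdc2, an RNA helicase (r = 0.937). Tfdp1 averaged 675, 1363, 758 and 957 in pre-βgal, post-βgal, pre-A20 and post-A20 livers.

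**Figure D4:**
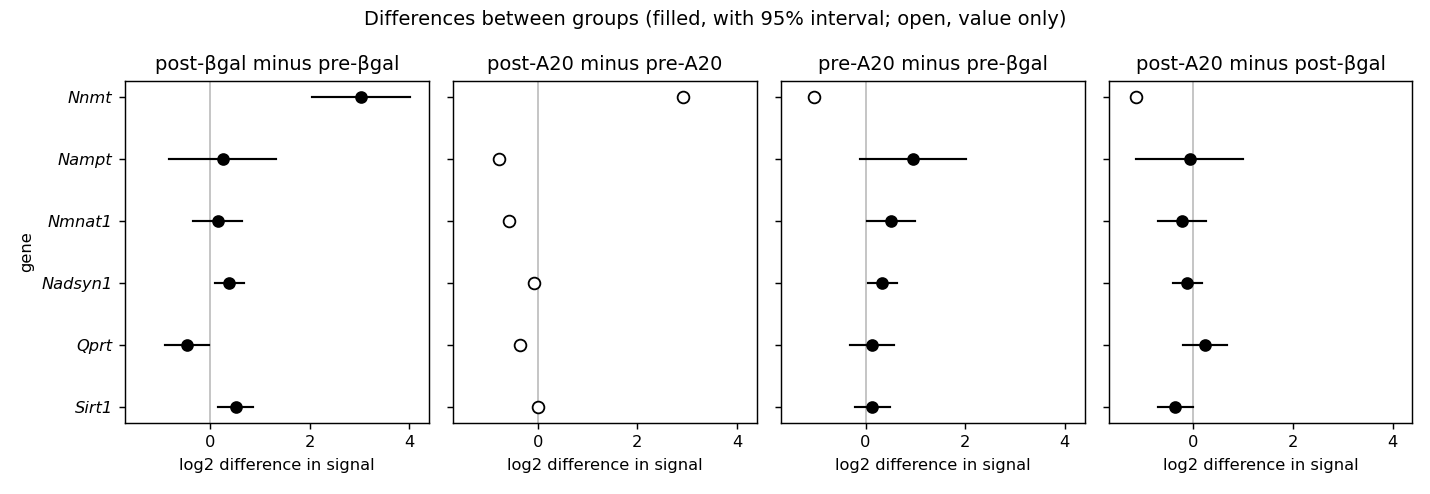
Log2 differences in signal (x axis) of the 6 genes (y axis) in the 4 comparisons of 2 groups, filled with a 95% interval from limma where tested and open where only a value is given. Nnmt in βgal livers, at 3.04, is the tested difference that was called.

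Over the 5 genes besides Nnmt, the comparison of A20 with βgal gave 0 calls at either time, where 2.5% of all genes were called before and 0.332% after resection. Before adjustment, limma had Nmnat1 and Nadsyn1 under 0.05 before resection and Sirt1 after it, as it had 21.8% and 19.6% of all genes. With resection in βgal livers, Sirt1, Nadsyn1 and Qprt were under the same unadjusted limit, with 22.2% of all genes. In βgal livers the arrays of 3 of the 5 genes were higher after resection without overlap and those of 1 were lower, where 20.4% of all genes were higher and 33% lower. In A20 livers 0 were higher and 4 lower, where the shares of all genes were 29.4% and 22.3%, and nothing is read from this count, since the choice of genes used that contrast. Before resection 3 were higher in A20 livers and 0 lower (22.1% and 29.3% of all genes), and after it 1, Qprt, was higher and 3 were lower (33.7% and 26.4% of all genes). With 2 arrays a group, 53.5% of all genes did not overlap in βgal livers and 51.7% in A20 livers. An exact permutation test of 2 against 2 arrays could not go below 0.333, so the tests rest on limma's pooled variances.

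The wider pathway was read through 52 further genes in 9 lists, out of 56. With resection in βgal livers 20 of the 52 were at an uncorrected p under 0.05 in limma, where 22.2% of all genes were. After adjustment 5 of the 52 were called, 4 higher and 1 lower, where 2.25% of all genes were called. The higher ones were Slc25a51, the carrier that brings NAD into mitochondria, Tiparp, a mono-ADP-ribosyltransferase that spends NAD, Slc36a4, an amino acid carrier that takes up tryptophan, and Bst1, an NAD-splitting ectoenzyme. Slc25a51 read 986 and 711 before and 2177 and 2133 after resection, a log2 difference of 1.35 (adjusted p = 0.0299 in limma). Tiparp read 217 and 195 before and 385 and 447 after, a difference of 0.96 (adjusted p = 0.0189 in limma). The arrays of these genes did not overlap between the times, as those of 53.5% of all genes did not. Slc36a4 read 174 and 191 before and 282 and 294 after (0.62, adjusted p = 0.0380 in limma). Bst1 was dim, with 82.2 and 81.3 before and 108 and 115 after (0.39, adjusted p = 0.0481 in limma). Haao, which makes the quinolinate that Qprt uses, was the gene called lower. It read 4527 and 3674 before and 2004 and 1382 after, a difference of −1.28 (adjusted p = 0.0391 in limma).

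These calls sat close to the threshold. That of Tiparp was lost without either post-βgal array (adjusted p 0.0740 and 0.126), and its difference was 0.59 (adjusted p = 0.160 in limma) as a mean over its probe sets. That of Slc25a51 was lost without any post-βgal, pre-A20 or post-A20 array, those of Slc36a4 and Haao without any but pre-βgal replicate 2, and that of Bst1 without any 1 of the 8 arrays, with adjusted p up to 0.165, 0.176, 0.176 and 0.221.

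In A20 livers 17 of the 52 were at an uncorrected p under 0.05 in limma after resection, where 15.4% of all genes were. Bst1 alone was called, where 1.01% of all genes were called. It read 61.4 and 62.6 before and 107 and 108 after, a log2 difference of 0.66 (adjusted p = 0.0144 in limma). The call was lost without any 1 of the 4 A20 arrays (adjusted p 0.0773 to 0.139). The difference of the responses of A20 and βgal livers gave 0 calls over the 52 and 0 over all genes in limma. At an uncorrected p under 0.05 were 7 of the 52, and 15.7% of all genes. The median of the 52 was −0.13 in βgal livers (−0.05 for all genes) and −0.02 in A20 livers (0.02 for all genes).

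**Figure D5:**
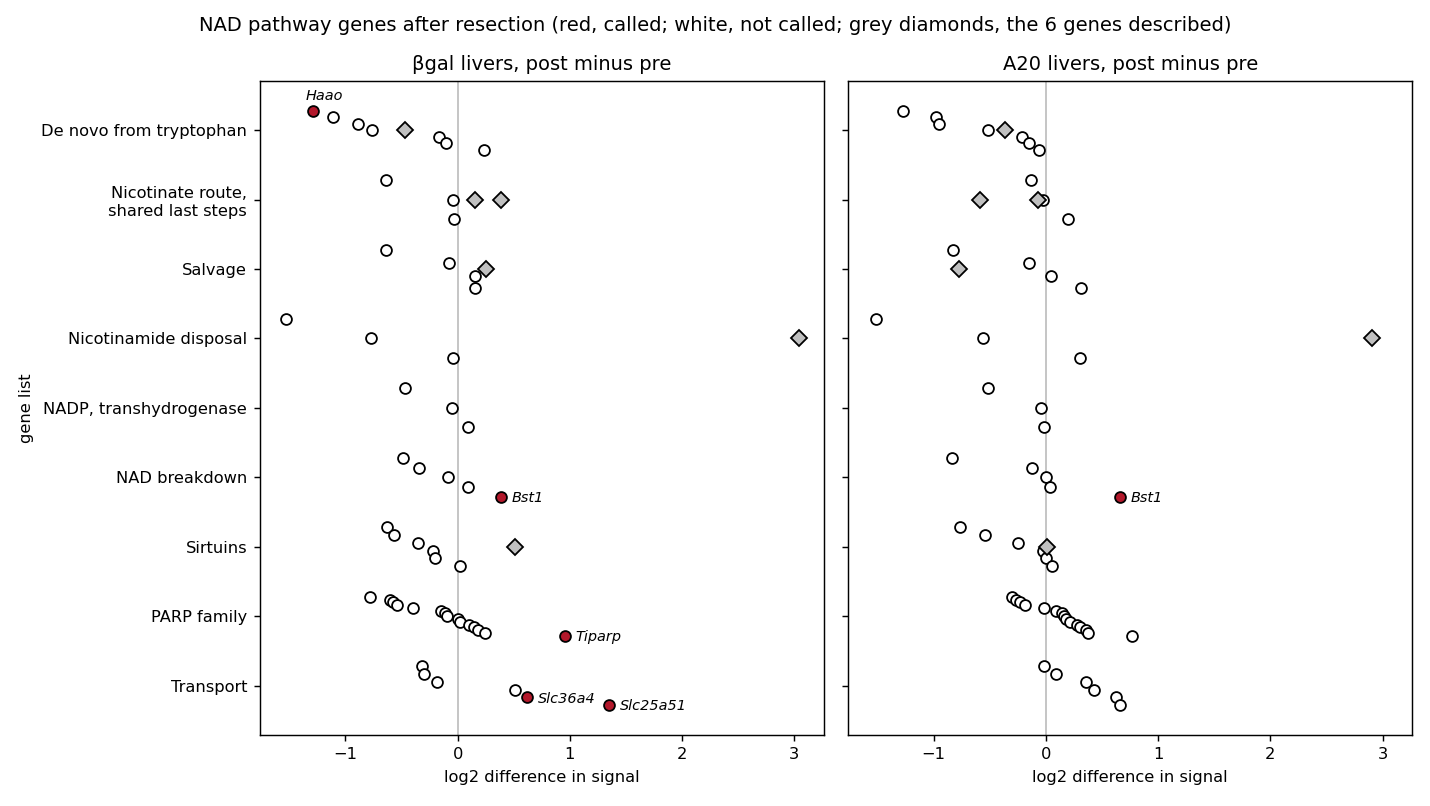
Log2 difference in signal after resection (x axis) of the NAD pathway genes by list (y axis) in βgal livers, left, and A20 livers, right. Red points are called in limma, white points are not, and grey diamonds are the 6 genes described. Nnmt lies at 3.04 and 2.91, and the next highest gene, Slc25a51, at 1.35 in βgal livers.

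By role, the de novo branch from tryptophan, which ends in Qprt, read lower after resection in 6 of 7 further genes in βgal livers, 1 of them called, and in 7 of 7 in A20 livers, 0 of them called. The median was −0.76 in βgal and −0.51 in A20 livers, and 4 and 3 of the 7 were at an uncorrected p under 0.05. Over all genes, 2.25% and 1.01% were called with resection in βgal and A20 livers, and 22.2% and 15.4% were at that uncorrected limit. These shares also stand beside the sirtuin, salvage and PARP counts below. All 7 read higher in A20 than in βgal livers both before (median 0.25) and after resection (median 0.34), with 0 called and 3 and 2 at an uncorrected p under 0.05 in limma. For all genes these medians were −0.03 and 0.03, with 21.8% and 19.6% at that limit. The first pre-βgal array, of low integrity, read below its partner for Tdo2 (3709 against 7123), Ido1, Ido2 (137 against 320), Afmid and Kynu. It read above its partner for Kmo and Haao. The differences before resection thus rest in part on this array. The other 6 sirtuins gave 0 calls, with medians of −0.28 and −0.14 after resection in βgal and A20 livers and 2 at an uncorrected p under 0.05 in each. The other 4 salvage genes gave 0 calls in limma in any comparison, and 1 was at an uncorrected p under 0.05 with resection in either transgene. Of 15 PARP genes tested, Tiparp was the 1 called with resection in βgal livers and 0 were called in A20 livers in limma, with 3 at an uncorrected p under 0.05 in each.

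Between A20 and βgal livers before resection 2 of the 52 were called, where 2.5% of all genes were called. Before adjustment 19 of the 52 were at p under 0.05 in limma, where 21.8% of all genes were. Nudt12, a hydrolase that removes NAD caps and cleaves NADH, read 424 and 446 in pre-βgal and 716 and 920 in pre-A20 livers, a log2 difference of 0.88 (adjusted p = 0.0481 in limma). Parp11, a mono-ADP-ribosyltransferase, read 755 and 657 against 280 and 231, a difference of −1.41 (adjusted p = 0.0499 in limma). Neither pair of groups overlapped, as was so for 51.3% of all genes. The Nudt12 call was lost without any array but pre-βgal replicate 2, and that of Parp11 without pre-βgal replicate 1 or any post-βgal or pre-A20 array, with adjusted p up to 0.295 and 0.312. After resection 0 of the 52 were called in limma, where 0.332% of all genes were, and 10 were at an uncorrected p under 0.05, where 19.6% of all genes were. The 52 genes had medians of −0.01 before and 0.08 after resection, against −0.03 and 0.03 for all genes.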

How the data were processed

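The authors deposited 1 table of normalized intensity values per probe set, linear, from 8 Affymetrix mouse arrays. Their methods name dChip invariant set normalization and the sample records name MAS5, and the sources do not say which of them the table came from. Symbols came from the 2016 platform annotation. Genes were read from the 34945 probe sets with 1 symbol, while the fit also took probe sets with no symbol or several. After an offset of 16 and log2, the 42703 probe sets whose mean reached 40 in any group were fitted with limma 3.58.1 (R 4.3.3), 1 mean per group, with variances moderated with a trend over all of them (4 residual and 3.73 prior degrees of freedom). Each of 17790 genes was read through its brightest probe set, and p-values, 2-sided, were adjusted by Benjamini-Hochberg over genes. The fit was tested on simulated data. The small number of arrays limits the precision.

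The members and gene lists were chosen with earlier results of these data known, and support nothing by themselves. Named were the 6 members, the 5 genes most like Nnmt and 2 most like each other member (not all are described), called NAD pathway genes, up to 4 methionine cycle genes with the smallest p, and up to 3 markers a list. Further markers, and the de novo genes that were not called, were named after their values were seen. Alternatives were other scalings, filters, offsets, variance models, probe set rules, a replicate block, an RNA integrity covariate and fits of fewer arrays. Variances moderated over genes alone were an alternative added after the data were seen. They raised the calls over all genes with resection from 400 to 710 in βgal and from 180 to 358 in A20 livers. For A20 against βgal the calls rose from 444 to 823 before and from 59 to 252 after resection.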

Additional observations from a re-analysis of the deposited data

Results flagged for a closer look

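With resection, the arrays of a few genes lay higher without overlap under 1 transgene and lower without overlap under the other. Of the 16 members and called pathway genes looked at, 5 had this pattern, and 11% of all 17790 genes had it too. Nudt12, Parp11 and Mtr were among the 16 through calls on the arrays before resection, which also enter both responses. Nmnat1 and Nadsyn1 belong to a list chosen with the resection contrast of A20 livers. Nothing is therefore read from the count. The difference of the responses, A20 minus βgal on the log2 scale, was −0.74 for Nmnat1 (0.15 in βgal, −0.59 in A20 livers, the latter −0.26 without pre-A20 replicate 2) and −0.46 for Nadsyn1 (0.39 and −0.07). It was −0.93 for Nudt12 (0.10 and −0.84), 1.36 for Parp11 (−0.60 and 0.76) and 0.95 for Mtr (−0.27 and 0.68). Limma's test of this difference gave 0 calls over all genes, and no p is given for the members, which were chosen with these arrays known.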

How the results depend on the processing

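Nnmt kept its direction with resection in βgal livers in 21 of 21 alternatives and its call in 17, and it was not called when only the 4 βgal arrays were fitted (adjusted p = 0.0624 in limma) or without both βgal replicate 1 arrays (0.0809). The member count with resection in βgal livers was 0 in these fits, 2 with the replicate block within transgene or the integrity covariate, and 0 to 1 without single arrays. That in A20 livers, 0 to 1 without single arrays, is Nnmt alone and was fixed by the choice of genes, so nothing is read from it. The block gave 1 before and 1 after resection for A20 against βgal, both Nnmt, whose differences there are values only, and the covariate gave 1 after it, Sirt1. The block also called Sirt1 in βgal livers (0.51, adjusted p = 0.0260 in limma). The labels do not say that a replicate number marks shared mice, and the correlation of replicate differences, over 1 pair of groups per transgene, was 0.675 in βgal and −0.043 in A20 livers. These fits moved the calls over all genes in the 4 comparisons, which were 400, 180, 444 and 59, to 1585, 686, 1915 and 1016 with the block, 2362, 1052, 1094 and 682 with the covariate, 8, 506, 1 and 242 with only the 4 arrays compared, and 122, 517, 52 and 87 without both βgal replicate 1 arrays.

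Of the pathway genes, 5 were called with resection in βgal livers, and 3 with the mean over probe sets, 0 with only the 4 arrays, 9 with the replicate block, 15 with the covariate, 1 without both βgal replicate 1 arrays and 0 to 5 without single arrays. In A20 livers the 1 call became 3 with only the 4 arrays, 7 with the block, 8 with the covariate, 3 without both βgal replicate 1 arrays, 3 with variances moderated over genes alone and 0 to 3 without single arrays. Before resection the 2 calls became 1 with quantile normalization, median centring or a minimum of 100, 0 with only the 4 arrays or without both βgal replicate 1 arrays, 10 with the block, 6 with the covariate and 0 to 9 without single arrays. After it the 0 calls became 1 with the mean over probe sets, only the 4 arrays or the covariate, 3 with the block and 0 to 2 without single arrays.

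For the methionine cycle, the 2 calls in βgal livers became 1 with the mean over probe sets, 0 with only the 4 arrays or without both βgal replicate 1 arrays, 4 with the block, 6 with the covariate and 0 to 3 without single arrays. The 0 in A20 livers became 1 with only the 4 arrays, the block, the covariate or without both βgal replicate 1 arrays. The 1 before resection became 0 with quantile normalization, only the 4 arrays or without both βgal replicate 1 arrays, and 0 to 2 without single arrays. The 0 after resection became 1 without the variance trend, 2 with the mean over probe sets or variances moderated over genes alone, 6 with the block or the covariate, and 0 to 5 without single arrays.

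Small differences changed sign. Without single arrays, Nampt in βgal livers ranged from −0.26 to 0.76, and after resection from −0.57 to 0.43, where quantile normalization gave 0.0017. Sirt1 in A20 livers was −0.025 with quantile normalization, −0.023 with median centring, −0.016 with the covariate, and −0.075 to 0.10 without single arrays. Sirt1 before resection was −0.026 with the covariate, −0.049 without both βgal replicate 1 arrays, and −0.049 to 0.32 without single arrays, and Qprt before resection ranged from −0.055 to 0.32. The cause was not tested. Fits of fewer arrays leave fewer residual degrees of freedom, and 2 arrays a group limit all tests.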
